A study of Mus musculus with 2 samples.

Results

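The genes described here encode the DNA break signalling and 53BP1 pathway, and their RNA was measured in the mouse line CH12.LX, which was established from a B-cell lymphoma. The 10 genes were chosen by name: Atm, Atr, Chek1, Chek2, Trp53bp1, Rif1, Mdc1, H2afx, Rnf8 and Rnf168. Each matched 1 of the 43346 annotated genes in the tables, of which 21474 are protein-coding, and together they had 68 transcripts. The labels give the line's strain as B10.H-2aH-4bp/Wts and call it the mouse counterpart of the human line GM12878. The study holds 1 group of 2 libraries, biological replicates 1 and 2 from separate biosamples, with no treatment and no second cell type. ERCC spike-in RNAs were added to both. A level here therefore describes 1 tumour line, and nothing is compared with normal B cells or with damaged cells.

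When both DNA strands break, ATM is activated at the ends, whereas ATR responds to single-stranded DNA at stalled replication forks and resected ends. Both kinases phosphorylate the histone variant H2AX beside the break and switch on the checkpoint kinases CHK2 and CHK1. MDC1 binds phosphorylated H2AX and brings in the ubiquitin ligases RNF8 and then RNF168, and 53BP1 binds the histone marks they lead to. 53BP1 and its partner RIF1 restrain trimming of the ends, a step known in B cells for its part in immunoglobulin class switching.

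The libraries held 24469094 and 23586580 expected counts, estimates in which reads shared by several features are divided between them. All 8 B-cell markers examined were at 1 TPM or more in both libraries (TPM, a relative level corrected for transcript length). None of 11 markers of T, natural killer, myeloid, endothelial, stromal or epithelial cells was, and their summed level was 1.92 and 1.85 TPM. Cd3e, Ncr1, Cd14 and S100a8 were at 0 in both. The labels give the donor's sex as female, whereas 4 of 4 Y-linked genes were expressed, at mean levels of 12 to 92.3 TPM. The labels also call the assay total RNA-seq but describe poly(A)+ RNA, which was not settled. With a single group no test between conditions exists, and an exact permutation test with 2 values on each side could not go below a p of 0.33. What the spread between the 2 biosamples holds beyond handling is not stated, so every SD below is the spread between these 2 libraries only.

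All 10 genes were at 1 TPM or more in both replicates, a level that 45.9% of protein-coding genes and 25.4% of all annotated genes reached. Chek1 was highest at 64.6 TPM ± 9.04 (SD, n = 2) and Mdc1 lowest at 1.98 TPM ± 0.389. The other 8 lay between 15.7 and 47.3 TPM, and the median of the 10 was 26.3 TPM, beside 19.2 TPM over the 9862 protein-coding genes expressed by the same rule. In falling order of the mean the genes were Chek1, Rif1, Atr, Rnf168, Trp53bp1, H2afx, Chek2, Rnf8, Atm and Mdc1. The ranges over the 2 replicates were apart between Chek1 and Rif1, Rif1 and Atr, H2afx and Chek2, Rnf8 and Atm, and Atm and Mdc1. They overlapped between Atr and Rnf168, Rnf168 and Trp53bp1, Trp53bp1 and H2afx, and Chek2 and Rnf8, so these neighbours did not differ beyond their spread. Of the pairs that were apart, the deposited credibility bounds overlapped for Rnf8 and Atm in both libraries. Those of H2afx and Chek2 overlapped in replicate 2.

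**Figure D1:**
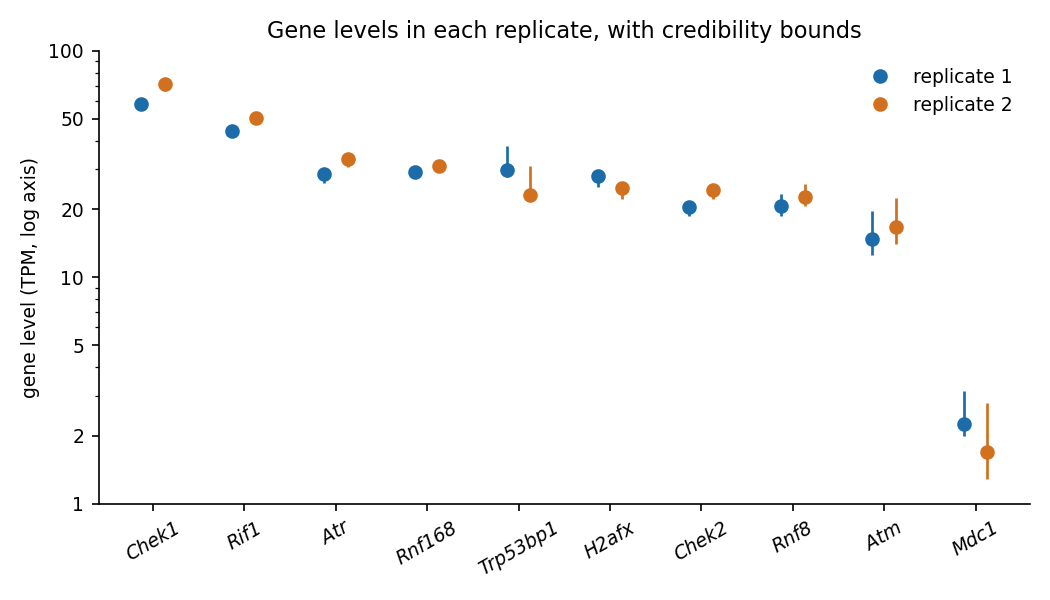
Level of each of the 10 genes (TPM, log axis) in replicate 1 (blue) and replicate 2 (orange), ordered by mean. Vertical lines are the deposited credibility bounds, which express the uncertainty of the estimate within a library. Mdc1, at 2.25 and 1.70 TPM, sits below all 9 other genes, whose values run from 14.7 TPM (Atm, replicate 1) to 71.0 TPM (Chek1, replicate 2).

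The apical kinase Atm (ENSMUSG00000034218.11, GRCm38 chr9:53439149-53536740, minus strand), mutated in ataxia telangiectasia, was at 14.7 TPM in replicate 1 and 16.7 TPM in replicate 2. These levels rest on 1552 and 1710 expected counts, and their mean of 15.7 TPM ± 1.42 (SD, n = 2) was at percentile 44.3 of the expressed protein-coding genes. Atr (ENSMUSG00000032409.10, chr9:95857597-95951781, plus strand), the kinase of replication stress, was at 28.5 and 33.2 TPM, from 3716 and 4082 expected counts. Its mean of 30.8 TPM ± 3.33 (SD, n = 2) was at percentile 62.9. Atr was above Atm in both libraries, with a within-library ratio of TPM of 1.93 and 1.98, and no value of one gene reached the range of the other. On complete coding transcripts, described further on, the mean ratio was 3.05, and by expected count over the length of the transcript with most counts it was 2.96. Atm and Atr belong to a family of 6 large kinases related to PI3-kinase, and Atr was the highest of the 6. The others were the repair kinase Prkdc at 10.8 TPM ± 0.672, the RNA surveillance kinase Smg1 at 12.025 TPM ± 0.643, the kinase-dead acetyltransferase cofactor Trrap at 12.5 TPM ± 1.48 and the growth kinase Mtor, lowest at 8.03 TPM ± 0.0283 (SD, n = 2 each).

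Atm starts close to a gene on the other strand. Npat, a coactivator of replication-dependent histone genes, starts 307 bases away, and it was at 16.3 and 17.0 TPM, beside 14.7 and 16.7 TPM for Atm. Chek2 has the same arrangement with Hscb, an iron-sulfur cluster co-chaperone whose start is 202 bases away, although there the levels were further apart. Hscb was at 49.1 and 39.6 TPM against 20.5 and 24.2 TPM for Chek2, so Hscb was lower and Chek2 higher in replicate 2. A coding gene starting on the other strand within 1000 bases was found for these 2 of the 10 genes (20%), close to the 18.9% found for 1862 of 9862 expressed protein-coding genes. The 300 bases around the start of both genes are shown because a coding gene on the other strand starts close by. They are in the direction of Atm and of Chek2, from RefSeq on GRCm38.p6, with CCAAT or its reverse complement ATTGG in capitals.
Atm, chr9:53536622-53536921, minus strand: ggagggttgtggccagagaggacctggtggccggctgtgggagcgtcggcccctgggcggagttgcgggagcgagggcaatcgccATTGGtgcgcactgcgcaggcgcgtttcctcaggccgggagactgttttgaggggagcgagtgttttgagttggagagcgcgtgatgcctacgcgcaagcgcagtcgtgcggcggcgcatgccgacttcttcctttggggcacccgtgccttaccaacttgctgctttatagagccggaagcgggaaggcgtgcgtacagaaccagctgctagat
Chek2, chr5:110839733-110840032, plus strand: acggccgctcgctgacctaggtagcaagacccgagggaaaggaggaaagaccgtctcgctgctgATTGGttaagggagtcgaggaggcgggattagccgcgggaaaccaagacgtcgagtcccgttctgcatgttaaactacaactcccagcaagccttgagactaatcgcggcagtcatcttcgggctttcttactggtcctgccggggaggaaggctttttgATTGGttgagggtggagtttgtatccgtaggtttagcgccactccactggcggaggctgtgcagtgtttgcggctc
The Atm window had a GC content of 64%, 1 CCAAT match and 1 match to GGGCGG, and it shared 125 bases with the window of Npat. The Chek2 window had a GC content of 56.7%, 2 CCAAT matches and 2 matches to TTTNNCGC, an E2F-like pattern. Promoter windows were at hand for 8 of the 10 genes (not H2afx and Rif1), and both strands were searched, with overlapping matches of different patterns each counted. CCAAT was in 4 of the 8, beside 37.4% of 32851 windows of this length. GGGCGG was in 6 of the 8 beside 35.7%, and TTTNNCGC in 2 of the 8 (Chek2 and Mdc1) beside 5.17%. The 32851 windows were not limited to expressed genes, so they are not a matched background for the 8. A match here is a description of letters and not of binding.

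Of the checkpoint kinases, Chek1 (ENSMUSG00000032113.11, chr9:36708482-36727065, minus strand) encodes the main effector of ATR and was the highest of the 10 genes. It was at 58.2 and 71.0 TPM from 2937 and 3149 expected counts, percentile 79.8 of the expressed protein-coding genes. Chek2 (ENSMUSG00000029521.3, chr5:110839979-110874145, plus strand) encodes the kinase that ATM activates, and was at 20.5 and 24.2 TPM from 866 and 984 expected counts, percentile 54.2. Both were higher in replicate 2, and their ratio of all-transcript TPM hardly moved, at 2.84 and 2.93, mean 2.89 ± 0.0601 (SD, n = 2). On complete coding transcripts the mean ratio was 1.39. There Chek1 was at 29.9 and 32.1 TPM, and the ratio was lower in replicate 2 than in replicate 1. Chek2 had a single transcript, so all of its counts were on a complete coding form.

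Chek1 had 9 transcripts, and 2 of them took most of its level. Chek1-201, the 13-exon coding form of 3397 nt, held 45.2% ± 4.26 of the gene's TPM (SD, n = 2), at 28.1 and 30.0 TPM. Chek1-207, a 12-exon form of 2142 nt that the annotation types as non-coding, held 37.5% ± 1.22, at 22.3 and 26.0 TPM. Their credibility bounds overlapped in both libraries (24.8 to 29.6 and 18.0 to 25.3 TPM in replicate 1, 26.6 to 31.7 and 21.4 to 29.1 TPM in replicate 2), so neither was called the leading form. Chek1-207 lacks exon 3, which lies at chr9:36723797-36724020 and is in the kinase-coding part of the gene. The exon is 224 nt, which leaves a remainder of 2 after division by 3, so that its loss shifts the reading frame. The exon is shown in capitals with 20 bases of the neighbouring exons, above the junction of Chek1-207 (GENCODE M21 transcripts, GRCm38).
Chek1-201 exon 3: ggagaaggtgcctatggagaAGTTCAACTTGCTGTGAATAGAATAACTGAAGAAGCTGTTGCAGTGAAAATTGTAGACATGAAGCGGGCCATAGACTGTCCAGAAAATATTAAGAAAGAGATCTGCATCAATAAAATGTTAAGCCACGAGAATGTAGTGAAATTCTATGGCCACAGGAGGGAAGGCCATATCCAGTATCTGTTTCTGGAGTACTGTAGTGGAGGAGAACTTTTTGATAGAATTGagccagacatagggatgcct
Chek1-207 junction: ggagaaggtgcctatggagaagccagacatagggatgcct
A shortened CHK1 from RNA that skips exon 3 has been described in human cells. Chek1-207 also ends earlier at the 3′ end than Chek1-201, so the estimates separate 2 whole forms and do not measure the exon alone. Another transcript, the retained-intron form Chek1-206 of 508 nt, was at 4.72 TPM in replicate 1 and 10.8 TPM in replicate 2, with bounds of 2.82 to 6.86 and 7.80 to 13.7 TPM that do not overlap. That difference rests on 28.2 and 62.0 expected counts.

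H2afx (ENSMUSG00000049932.3, chr9:44334694-44336077, plus strand) encodes H2AX, the histone variant whose phosphorylation marks a break. It was at 27.9 TPM in replicate 1 and 24.8 TPM in replicate 2, from 676 and 577 expected counts, percentile 58.4. The gene has 1 exon and 1 transcript of 1384 nt. H2afx RNA is known in 2 forms, one ending at a histone stem-loop and one running on to a poly(A) tail, and the stem-loop was found once in H2afx-201 (arms of 6 nt in capitals around a loop of 4 nt, also in capitals).
H2afx stem-loop, chr9:44335240-44335255, plus strand: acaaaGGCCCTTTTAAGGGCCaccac
It lies 49 bases past the last coding base, the stop codon not counted as coding, and is followed by 822 of the transcript's 1384 bases. A form that ended at the stem-loop would therefore be less than the annotated length, and the single H2afx transcript in the tables does not separate the forms. The 5 other H2A variants whose genes have polyadenylated RNA ranged more widely. H2afz, the major replacement variant, was at 3390 and 3747 TPM, whereas macroH2A2 (H2afy2) had 0 expected counts in both libraries, where 3 counts, the limit taken for a count of 0, would be 0.0735 and 0.0766 TPM.

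Mdc1 (ENSMUSG00000061607.10, chr17:35841515-35859670, plus strand), the mediator that reads phosphorylated H2AX, had the lowest level of the 10 genes. It was at 2.25 TPM from 334 expected counts in replicate 1 and at 1.70 TPM from 198 in replicate 2, which is percentile 5.38 of the expressed protein-coding genes. The level of H2afx was 12.4 and 14.6 times that of Mdc1, and that of Trp53bp1 was 13.2 and 13.6 times. The latter ratio depended on the measure: it was 5.80 by expected count over the length of the transcript with most counts, and 3.02 on complete coding transcripts. Mdc1-201, the complete coding form of 7335 nt, held all 334 expected counts in replicate 1 and 197 of 198 in replicate 2. The remaining 1.29 expected counts went to Mdc1-202, a partial coding form of 422 nt, and on so short a transcript they gave 0.32 of the gene's 1.70 TPM. On Mdc1-201 alone the level was 2.25 TPM (bounds 1.95 to 2.42) in replicate 1 and 1.38 TPM (bounds 1.17 to 1.54) in replicate 2. Those bounds do not overlap, so the difference between the libraries is larger on the complete form than in the gene's summed TPM.

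The ligase Rnf8 (ENSMUSG00000090083.6, chr17:29614790-29644991, plus strand), which MDC1 brings to the break, was at 20.6 and 22.7 TPM, percentile 53.4. Its counts of 588 and 644 were the only ones among the 10 genes with an uncertain share, with a posterior SD of 13.01 and 12.24 counts. The annotated read-through gene Gm28043 lies on the same strand over almost the whole of Rnf8 and was given 349 and 338 expected counts, so the division of reads between the 2 is an estimate. Rnf168 (ENSMUSG00000014074.13, chr16:32277459-32301434, plus strand), which extends the ubiquitin mark on H2A, was at 29.1 and 31.1 TPM from 2580 and 2632 expected counts, percentile 62.1. The ratio of Rnf168 to Rnf8 was 1.41 and 1.37, and on complete coding transcripts its mean was 2.34. Rnf168 had the smallest difference of the 10 between replicates, and 1 form, Rnf168-203 of 4460 nt, held 99.8% ± 0.283 of its TPM. In Rnf8 the complete coding form Rnf8-201 led with 59.4% ± 3.54 of TPM and 79.2% of counts, and the retained-intron forms Rnf8-207 and Rnf8-202 held 15.7% ± 4.12 and 13.6% ± 0.566 of TPM (SD, n = 2 each).

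Trp53bp1 (ENSMUSG00000043909.12, chr2:121193281-121271407, minus strand) encodes 53BP1, and was at 29.6 and 23.1 TPM from 2048 and 1800 expected counts, percentile 58.5. The deposited credibility bounds of the gene were wide in both libraries, 27.7 to 37.8 and 23.3 to 31.0 TPM, and the replicate 2 estimate lies just under its own lower bound. No leading form was called among its 19 transcripts. The highest by TPM was Trp53bp1-216, a form of 3983 nt annotated as a target of nonsense-mediated decay, with 28.3% ± 2.72 of TPM. Trp53bp1-202, the longest of the forms that passed 10% at 9621 nt and complete in coding, held 16.6% ± 2.73 of TPM and 43.2% of counts. Short fragments took much of the rest, such as Trp53bp1-217, a non-coding form of 751 nt with 16.5% ± 2.28 of TPM and 2.46% of counts (SD, n = 2 throughout). The 3′ end of Trp53bp1 overlaps that of Tubgcp4, a gamma-tubulin complex gene on the other strand, over 5490 bases. Tubgcp4 was at 25.3 TPM ± 2.11, and whether the quantification used the strand of a read is not given in the sources used here.

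Rif1 (ENSMUSG00000036202.11, chr2:52072832-52122383, plus strand), the effector that 53BP1 recruits, was second highest at 44.2 and 50.4 TPM. It had the most expected counts of the 10, 4198 and 4700, and was at percentile 73.0. The ratio of Rif1 to Trp53bp1 was 1.49 in replicate 1 and 2.18 in replicate 2, the widest relative spread of the 6 ratios. By all-transcript TPM, Rif1 was higher and Trp53bp1 lower in replicate 2. The length that divides the counts of Trp53bp1 also differed, at 3307 nt in replicate 1 and 3884 nt in replicate 2. On complete coding transcripts Trp53bp1 was at 5.37 and 5.05 TPM. The leading form, called in both libraries, was Rif1-207, a partial coding form of 2784 nt whose 6 exons begin at 79.3% of the gene's length and run to its end. It held 55.1% ± 2.70 of TPM and 30.7% of counts. The full-length Rif1-201 was at 5.63 and 10.4 TPM, and a second long form of 8497 nt (ENSMUST00000069794.5) at 8.96 and 7.32 TPM. The bounds of the 2 long forms overlapped in both libraries, 0.873 to 10.6 against 3.27 to 13.2 TPM in replicate 1, so their levels were not told apart. RIF1 is known in a long and a short form that differ by a cassette exon near the C terminus. In the annotation this exon, at chr2:52116668-52116745, is 78 nt, a multiple of 3, and it is in Rif1-204 but not in Rif1-207. It is shown in capitals with 20 bases on each side, above the junction of Rif1-207 (GENCODE M21 transcripts, GRCm38).
Rif1-204 exon 3: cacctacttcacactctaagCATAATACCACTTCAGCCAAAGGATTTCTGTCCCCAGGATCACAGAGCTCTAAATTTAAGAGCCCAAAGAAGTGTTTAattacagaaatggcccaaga
Rif1-207 junction: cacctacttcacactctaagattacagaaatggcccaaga
Rif1-207 differs from the other forms also in where it begins and ends, so its share is not a measure of how often the exon was left out.

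Much of the level of several genes was on transcripts that the annotation does not list as complete and coding. Over the 8 genes with 2 or more transcripts, complete coding transcripts held a median of 53.9% of TPM. The median was 89.9% (interquartile range 69.1% to 98.6%) over 7330 expressed protein-coding genes with 2 or more transcripts. Those 7330 genes were not matched to the 8 by number of transcripts or by length, and no such background was taken on counts. Rif1 at 16.7% and Trp53bp1 at 19.99% were at percentiles 2.92 and 3.52 of those genes. The Rif1 share leaves out the form of 8497 nt, which has no entry in the annotation used. With such forms counted as complete in every gene, Rif1 was at 34.1%, percentile 6.10. Atm at 48.1% and Chek1 at 48.3% were at percentiles 11.98 and 12.13, Rnf8 at 59.4% at 17.9 and Atr at 74.9% at 30.0. Mdc1 at 90.6% and Rnf168 at 99.8% were at or above the middle, at percentiles 51.5 and 81.0. A leading form with bounds apart from every other was called for 4 of the 8 (Atr, Rif1, Rnf8 and Rnf168), beside 68.1% of the 7330 genes.

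**Figure D2:**
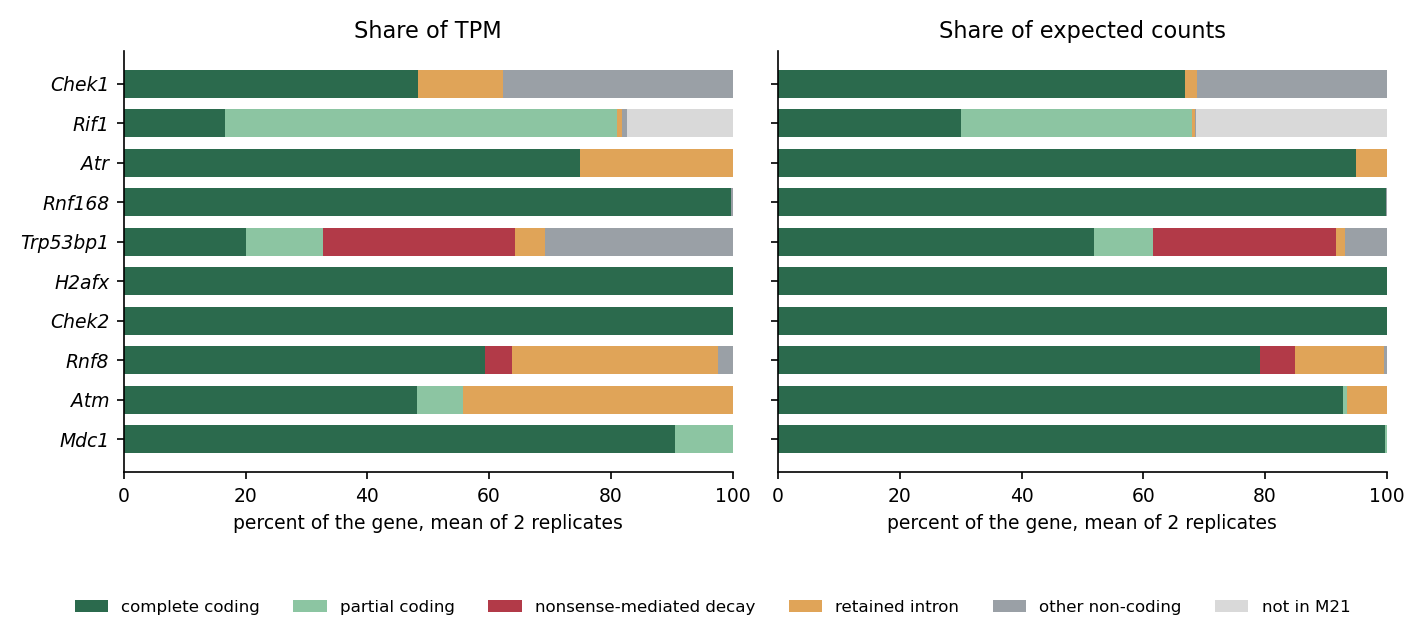
Share of each gene on transcripts of 6 annotated classes, as percent of TPM (left) and of expected counts (right), mean of 2 replicates. Atm shows the gap between the scales: complete coding transcripts held 48.1% of its TPM and 92.8% of its counts.

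The 2 scales part because TPM divides by length, so a few counts on a short form weigh as much as many on a long one. In Atm, the complete form Atm-201 held 92.8% of counts and 48.1% ± 0.693 of TPM. The retained-intron form Atm-204 of 1243 nt, confined to the first 15.3% of the gene, held 6.40% of counts and 31.7% ± 3.17 of TPM. Atm-202, of 281 nt, was given 12.6% ± 2.23 of TPM on 1.99 and 2.81 expected counts, with bounds of 0.116 to 5.82 TPM in replicate 1. In Atr the complete form Atr-201 led with 74.9% ± 1.54 of TPM and 94.96% of counts, and 11 retained-intron forms shared the other 5.04% of counts (SD, n = 2 throughout). Antisense genes add little there: 1700065D16Rik, over the start of Atr, had 2 and 6 expected counts, and Gm16794, over its 3′ part, had 12 and 18.

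On complete coding transcripts alone the order of the genes was different, and only Chek1 and Mdc1, the highest and the lowest, kept their rank. Chek1 was at 31.0 TPM ± 1.58, Rnf168 at 30.0 TPM ± 1.28 and H2afx at 26.3 TPM ± 2.18. Atr followed at 23.1 TPM ± 2.02, Chek2 at 22.4 TPM ± 2.67 and Rnf8 at 12.9 TPM ± 1.63. Rif1 fell from second to the seventh place, at 8.02 TPM ± 3.37, and Trp53bp1 from the fifth to the ninth, at 5.21 TPM ± 0.226, with Atm between them at 7.57 TPM ± 0.792 (SD, n = 2 each). With the form of 8497 nt counted as complete, Rif1 was at 16.2 TPM ± 2.21 (14.6 and 17.7 TPM) and took the sixth place, above Rnf8. All-transcript TPM was 5.90 times the complete coding TPM for Rif1, or 2.93 times with that form. It was 5.06 times for Trp53bp1 and 2.08 times for both Chek1 and Atm. Chek2 and H2afx have 1 transcript each, so their level could not change and their place could only hold or rise.

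**Figure D3:**
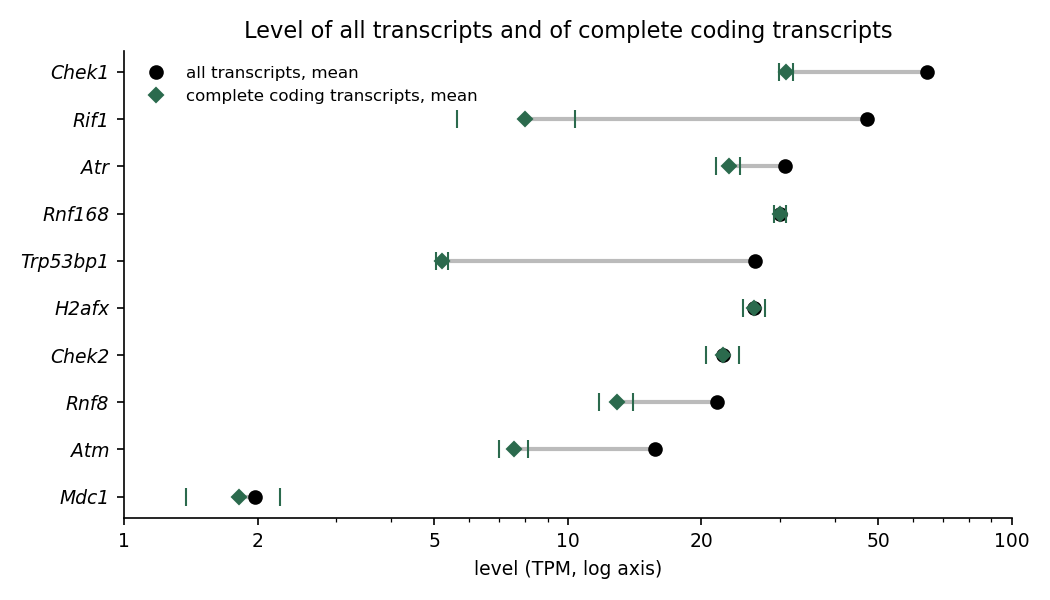
Level over all transcripts (black circles) and over complete coding transcripts (green diamonds) for each gene, in TPM on a log axis, as means of 2 replicates. Green ticks are the 2 replicates of the complete coding level, and grey lines join the means. The means lie far apart for Rif1 (47.3 and 8.02 TPM) and Trp53bp1 (26.4 and 5.21 TPM). They coincide for Chek2 and H2afx, whose single transcript is complete coding.

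Apart from Mdc1, the gene-level differences of the 10 genes between the 2 libraries stayed under 1.5-fold on every scale tried. By TPM none of the 10 was past 1.5-fold, and 2.69% of the 11661 genes with a mean of 20 or more expected counts were. With 1 library on each side this is a rule of size without a p-value. Of the 10, 7 were higher in replicate 2, from 0.09 on the log2(TPM + 0.5) scale for Rnf168 to 0.28 for Chek1. The 3 that were lower were Trp53bp1 at -0.35, Mdc1 at -0.32 and H2afx at -0.17. The median over the 11661 genes was -0.002, and the share of them that was higher in replicate 2 was not taken. By CPM, the expected count scaled to the library's total, Mdc1 alone was past the limit, at -0.67 on the log2(CPM + 0.5) scale, as were 2.1% of the genes in either direction and 1.48% in this one. The CPM of Mdc1 in replicate 2 was 0.615 of that in replicate 1 (95% Clopper-Pearson interval 0.513 to 0.735, counting error only). That of Trp53bp1 was 0.912 (0.855 to 0.972) and that of H2afx 0.885 (0.791 to 0.991), whereas Rif1 was at 1.16 (1.11 to 1.21) and Chek1 at 1.11 (1.06 to 1.17). On the log2(CPM + 0.5) scale the largest rise was that of Chek2 at 0.23, and Chek1 was at 0.15, so which gene rose most depended on the measure. Mdc1, Trp53bp1 and H2afx were lower and the others higher also with TMM and median-of-ratios factors. Scaled to the ERCC spike-ins, which moved the median gene by 0.29, Trp53bp1 (0.18) and H2afx (0.14) were higher and Mdc1 alone was lower (-0.37).

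Over all genes the differences between the 2 libraries went in part with GC content, and the 10 genes did not all follow it. Taken over 11575 genes of the same pair of libraries, which are not replicates of each other, the CPM difference had a Spearman correlation of -0.373 with the GC content of the transcript with most counts. The median difference was 0.09 for genes under 45% GC and -0.10 for those at 55% or more. Over the 2926 genes under 45% GC the 5th and 95th percentiles were -0.25 and 0.37. The share of those genes that was higher in replicate 2 was not taken. Of the 10 genes, the 5 below 45% GC (Rif1 and Chek1 at 39.3% and 39.4%, Atr at 41.5%, Atm at 42.6%, Rnf168 at 44.3%) were all higher in replicate 2. H2afx had the highest GC content, 62.3%, and was lower, as were Mdc1 at 51.0% and Trp53bp1 at 48.04%, while Rnf8 at 49.6% and Chek2 at 46.4% were higher. The difference of Mdc1 (-0.67) was below the 5th percentile of genes of 50 to 55% GC, which was -0.40. GC content came from M21 sequences, which can differ from the form quantified: Rnf8-201 is 5404 nt in M21 and 2077 nt as quantified. For Rif1, whose transcript with most counts has no M21 entry, the complete coding Rif1-201 was used. The part of GC content in these differences was not tested.

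**Figure D4:**
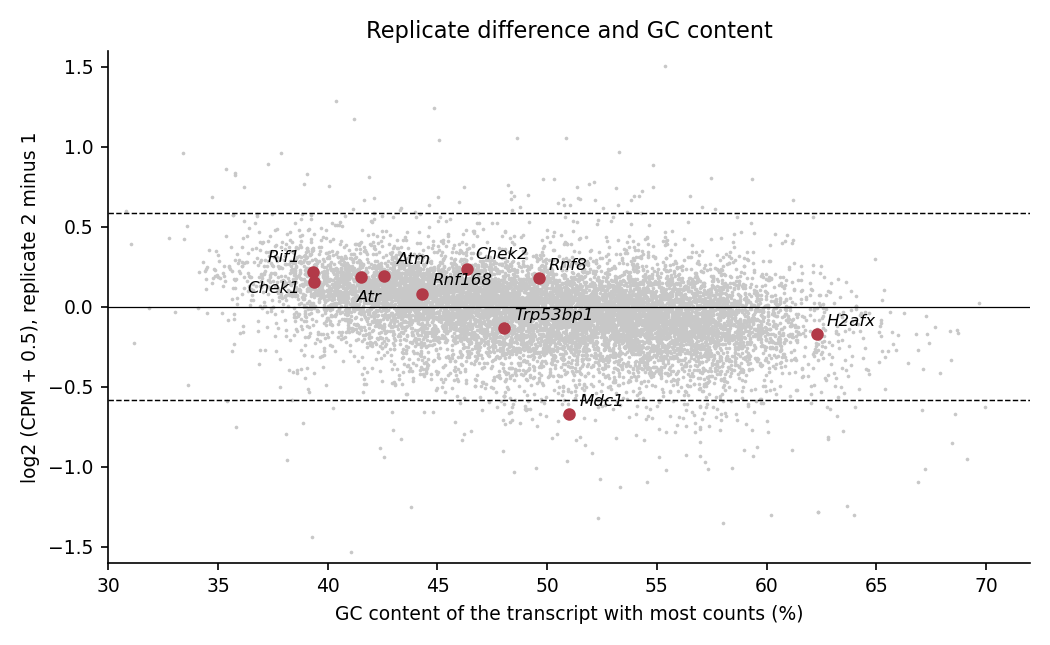
Difference between replicates, log2(CPM + 0.5) of replicate 2 minus replicate 1, against GC content (%) for 11569 genes (grey; 6 lie outside the axes) and the 10 pathway genes (red). Dashed lines mark 1.5-fold; Mdc1 at -0.67 is the only red point past them, and all red points under 45% GC lie above 0.

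The other genes listed for the pathway were expressed as well. Of 67 such genes in 7 lists by role, 66 were measured (Shld3 was not), and all 66 reached 1 TPM in both replicates, with 28.1 TPM as their median. All 4 genes of break sensing and ATM activation were expressed, from the acetyltransferase Kat5 at 26.4 TPM ± 4.96 to Nbn, of the MRN complex that brings ATM to ends, at 41.4 TPM ± 2.02. Of 13 genes of ATR activation, all were expressed, with a median of 37.1 TPM. The single-strand binding subunit Rpa1 was highest at 282 TPM ± 10.5 and the clamp subunit Rad9a lowest at 8.38 TPM ± 1.06 (SD, n = 2 each).

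All 11 genes of the ubiquitin steps around RNF8 and RNF168 were expressed, with a median of 41.0 TPM. The conjugating-enzyme variant Ube2v2 was at 321 TPM ± 12.1 and the deubiquitinase Usp44 at 1.51 TPM ± 0.00707, the closest of the group to the limit of 1 TPM. The 17 measured genes of 53BP1 recruitment and its effectors had a median of 25.4 TPM. They ran from the end-processing nuclease Artemis (Dclre1c) at 6.01 TPM ± 0.926 to the phosphatase subunit Ppp1ca at 479 TPM ± 4.43. Of the shieldin subunits, which act below RIF1, Shld1 was at 9.29 TPM ± 0.594, Shld2 at 10.7 TPM ± 0.502 and Mad2l2 at 16.9 TPM ± 1.23 (SD, n = 2 each). They were added to the named genes after their values were seen, and all 3 lay below both Trp53bp1 and Rif1 in all-transcript TPM.

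The 7 genes of the BRCA1-A complex, which binds the ubiquitin chains that RNF8 and RNF168 make, were at 6.32 TPM ± 0.608 (Bard1) to 34.1 TPM ± 0.00707 (Brcc3). The 9 checkpoint targets had a median of 15.6 TPM, from the deubiquitinase Usp28 at 2.97 TPM ± 0.269 to the p53 ligase Mdm2 at 82.8 TPM ± 4.98. Of the 66 genes in these lists, 1 (1.52%) was past 1.5-fold between replicates by TPM, beside 2.69% of all genes tested and 1.57% of expressed protein-coding genes. This was Trp53, which encodes p53. It was at 19.1 TPM in replicate 1 and 12.02 TPM in replicate 2, from 640 and 383 expected counts. Both checkpoint kinases are known to modify p53. The 5 phosphatases that reverse the signal had a median of 92.7 TPM, with Ppp2ca highest at 140 TPM ± 6.27 and the p53-induced Ppm1d lowest at 19.6 TPM ± 0.431 (SD, n = 2 each).

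**Figure D5:**
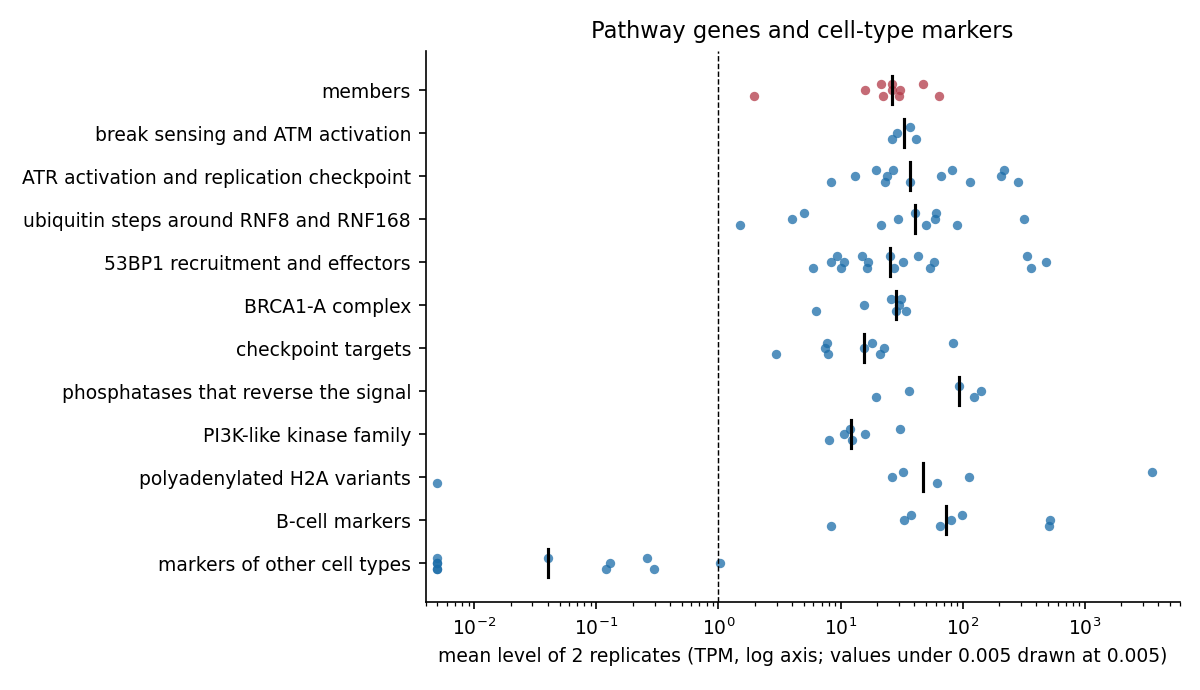
Mean level of 2 replicates (TPM, log axis) for the 10 genes (red), the pathway lists and the cell-type markers (blue), 1 point per gene, with a black bar at the median of each list. The dashed line is at 1 TPM: all B-cell markers lie above it, and of the markers of other cell types only Epcam, at 1.04 TPM, reached it as a mean.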

How the data were processed

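RNA was measured in 2 libraries of 1 group, both analysed. For each library the authors deposited a gene and a transcript table, made on mm10 with GENCODE M4, per the accompanying text. The sources used here name no aligner, quantification tool or version. Expected counts, per the file headers, are estimates that divide shared reads. TPM values, deposited by the authors, are per length and scaled over all features, spike-ins included, so each depends on the rest of the library. Isoform percent, per the file headers, divides a gene's TPM among its transcripts. FPKM values, also deposited by the authors, served as 1 alternative. Total expected counts were 24469094 and 23586580. The libraries differed by more than sampling noise (chi-square per degree of freedom 13.7 over 11661 genes).

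Symbols, types and coordinates came from GENCODE M21 on GRCm38 by identifier, for 42462 of 43346 genes. Of the 68 transcripts, 66 were in M21 and 58 had the same length there, and exons are described only for those. A further 26248 features named by a number were left out. Differences are replicate 2 minus replicate 1 on log2 with a pseudocount of 0.5, over genes with a mean of 20 or more expected counts, called past 1.5-fold. The pseudocount makes differences of low genes look smaller. Intervals cover counting error only, since without molecular identifiers several reads can come from 1 molecule. A leading transcript was called where its lower credibility bound exceeded the upper bound of every other in both replicates. The step for differences was tested on simulated counts with known changes and sampling noise only. The 2 libraries differed by more than such noise, so that test does not measure false calls here. TMM factors came from edgeR 4.0.16 in R 4.3.3 on rounded expected counts, and other steps used Python 3.11.15, pandas 2.3.3 and SciPy 1.17.1.

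Named were the 10 genes, each list's highest and lowest gene, genes under 1 TPM or past 1.5-fold (markers of other cell types as a group), transcripts at 10% or more and neighbouring genes. Some of these are given only as counts. Prkdc, Smg1, Trrap, the shieldin subunits and values on complete coding transcripts, with and without forms that have no M21 entry, were chosen after the data were seen. The genes and lists were chosen with earlier results of these data known. 1 listed marker is not reported here. A planned count of kinase target sites in the proteins was not run.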

Additional observations from a re-analysis of the deposited data

How the results depend on the processing

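The median level of the 10 genes was 26.3 TPM, 34.6 TPM rescaled over nuclear protein-coding genes and 17.6 TPM on complete coding transcripts (19.3 TPM with those that have no M21 entry), the last 2 chosen after seeing the data. The number keeping their rank of 10 was 6 by posterior mean TPM and 2 on complete coding transcripts with or without those, and 6 to 7 from a single replicate. By posterior mean TPM the ratio of Atr to Atm was 1.81, of Chek1 to Chek2 2.95, of Rnf168 to Rnf8 1.33 and of H2afx to Mdc1 11.6. By expected count over the length of the transcript with most counts, Atr to Atm was 2.96, Chek1 to Chek2 2.18, Rif1 to Trp53bp1 2.64, Rnf168 to Rnf8 1.97 and Trp53bp1 to Mdc1 5.80. On complete coding transcripts Atr to Atm was 3.05, Chek1 to Chek2 1.39, Rnf168 to Rnf8 2.34, H2afx to Mdc1 15.2 and Trp53bp1 to Mdc1 3.02. Of the 10 genes, those past 1.5-fold between replicates were 0 by TPM and 1 (Mdc1) by CPM, TMM factors and median-of-ratios factors. Scaling to the ERCC spike-ins moved the median of all genes to 0.29. This shift, common to all genes, turned the sign of Trp53bp1 (0.18) and H2afx (0.14) and left 0 of the 10 past 1.5-fold, so that it shows nothing particular to them. All 10 were expressed under each threshold, measure and single replicate tried, except at 5 TPM, where 9 were. A single replicate or the threshold of 0.5 TPM could not give fewer, since all 10 had passed the stricter rule in both replicates. The other values that answer a comparison (41 in all) stayed within 1.5 times or 1 SD, and the cause of the moves was not tested. For ratios from a single replicate this was fixed in advance, since each of 2 values lies within 1 SD of their mean. The 41 include the mean ratio of Rif1 to Trp53bp1 on complete coding transcripts, 1.55 beside 1.84 by all-transcript TPM. That value leaves out the long Rif1 form with no M21 entry. With that form counted, Rif1 was at 14.6 and 17.7 TPM in replicates 1 and 2, beside 5.37 and 5.05 TPM for Trp53bp1. The ratio was not taken on that measure, so the 41 do not cover it. No paired analysis was possible because the replicate numbers belong to 1 group. Depth limits Mdc1 most, with 334 and 198 expected counts, and the transcript shares rest on estimates that divide shared reads.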
